A study of Mus musculus with 8 samples.

Results

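The genes described here are 8 markers of pluripotency that the reprogramming cassette does not encode, *Nanog*, *Esrrb*, *Dppa5a*, *Tdgf1*, *Utf1*, *Lin28a*, *Sall4* and *Fbxo15*. They were chosen by name, and all 8 were found by their symbol among the 18990 genes of the deposited RNA-seq table. RNA-seq was done at day 3 and day 6 of reprogramming, and there were 2 biological replicates in each of 4 groups, which are *siNcor1* at day 3, *siNcor1* at day 6, *siOct4* at day 3 and *siOct4* at day 6. All groups were wild-type primary mouse embryonic fibroblasts (MEFs) of strain BL6, and all received lentiviruses with the doxycycline-inducible tet-STEMCCA cassette (*Oct4*, *Sox2*, *Klf4* and *c-Myc*; OSKM) and with rtTA, the transactivator that doxycycline needs. A pool of siRNAs at 40 nM was transfected before induction. All groups were then induced with doxycycline in medium with Chiron (a GSK3 inhibitor), Alk5i (a TGF-β inhibitor), ascorbic acid and LIF. The cells were bulk, transduced populations and not clones, siRNAs act transiently, and reads do not separate cells by state. Libraries of a non-targeting siRNA were not analysed here, so each comparison is between the days or between the knockdowns.

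Pluripotent cells hold their state through a network of transcription factors in which OCT4, SOX2 and NANOG bind each other's genes and many shared targets. MEFs keep this network silent, and when OSKM are expressed the endogenous genes are switched on late and in a small share of the cells, after the fibroblast programme and the transition from mesenchymal to epithelial cells. Genes such as these 8 are used to tell how far a population has moved towards pluripotency, since their reads do not come from the cassette. They are not all late. The paper uses SALL4 as an early marker, and *Sall4* had 101 and 120 reads in *siNcor1* at day 3.

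The 8 genes raise the question of which of their promoters carry short sequences that the cassette factors recognise. Promoter entries of RefSeq (GRCm38.p6) were searched for 5 of the 8 genes, with 7 windows of 250 bases before a start site. *Dppa5a*, *Sall4* and *Fbxo15* were not searched. The motifs were searched on both strands, and they were chosen for the cassette factors after the windows had been read. They were TGCATNACA (the core of the composite OCT-SOX element), ATTTGCAT (the octamer), ACAATG (SOX), GGGCGTG and GGGTGTG (KLF) and CACGTG (the E-box of MYC). A TGCATNACA match can overlap an ACAATG match. The 3 windows below are shown because their start coincides with that of the gene in GENCODE M21, and capitals mark the matches. They are *Nanog* at chr6:122707239-122707488 on the forward strand, *Tdgf1* at chr9:110946159-110946408 on the reverse strand and *Esrrb* at chr12:86360867-86361116 on the forward strand, each written 5′ to 3′ on the strand of its gene.
Nanog: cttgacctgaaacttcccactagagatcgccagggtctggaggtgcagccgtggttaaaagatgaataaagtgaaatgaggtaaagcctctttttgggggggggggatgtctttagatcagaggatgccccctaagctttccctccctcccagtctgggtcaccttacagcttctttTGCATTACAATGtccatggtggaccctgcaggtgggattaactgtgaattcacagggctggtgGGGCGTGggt
Tdgf1: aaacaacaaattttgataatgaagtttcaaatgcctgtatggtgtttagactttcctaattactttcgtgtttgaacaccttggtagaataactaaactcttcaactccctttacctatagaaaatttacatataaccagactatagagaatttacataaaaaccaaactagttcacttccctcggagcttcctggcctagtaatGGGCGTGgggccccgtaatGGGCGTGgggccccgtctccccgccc
Esrrb: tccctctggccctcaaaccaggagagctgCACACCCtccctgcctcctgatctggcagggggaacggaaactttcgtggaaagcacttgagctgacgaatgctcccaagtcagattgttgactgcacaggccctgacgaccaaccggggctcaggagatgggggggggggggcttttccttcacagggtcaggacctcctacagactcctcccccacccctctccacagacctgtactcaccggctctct

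The *Nanog* window held the composite OCT-SOX core from 73 to 65 bases before the start, with a SOX match that overlaps it from 67 to 62, and GGGCGTG from 10 to 4 bases before the start. Of all 32851 mouse promoter windows of the same length, 0.718% held TGCATNACA, 10.7% held ACAATG and 7.55% held GGGCGTG. The *Tdgf1* window held GGGCGTG at 45 to 39 and again at 26 to 20 bases before the start. The *Esrrb* window held GGGTGTG, on the other strand, at 221 to 215 bases before the start, and 6.93% of all windows held it. The *Lin28a* window held ACAATG on the other strand at 96 to 91 bases before its RefSeq start, and the *Utf1* window held none of the searched letters. The octamer was in 1.60% and the E-box in 6.02% of all windows, and neither was in a searched window of these genes. These matches describe letters and not bound sites.

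The libraries held between 7735742 and 16445192 reads on genes, so that 1 read was worth between 0.0580 and 0.127 CPM, a gene's reads scaled to the normalized total of its library. The shallowest was replicate 2 of the libraries labelled *siOct4* at day 3. At day 3 *Ncor1* was lower in *siNcor1* than in the other knockdown (log2 fold change of *siOct4* against *siNcor1* 0.74, standard error 0.12, limma adjusted p = 0.0139), and this was not seen at day 6 (−0.042, adjusted p = 0.815). *Pou5f1*, which encodes OCT4, had 197 and 205 CPM in *siNcor1* and 185 and 197 CPM in the libraries labelled *siOct4* at day 3. At day 6 it had 187 and 160 CPM in *siNcor1* and 700 and 501 CPM in the libraries labelled *siOct4*. Against *siNcor1*, the reads thus show no marked loss of *Pou5f1* at either day in the libraries labelled *siOct4*, which are named by their label throughout. Reads of the cassette and the endogenous gene were counted together. A loss against a non-targeting siRNA, or before day 3, was not tested here. The paper reports from a separate time course that *Oct4* mRNA was silenced earlier and soon recovered, and it attributes the recovery to the cassette. The 10 fibroblast markers all had reads in all groups, and their summed level was 8508 to 8760 CPM in *siNcor1* at day 3, 6215 to 6384 CPM at day 6, 11331 to 12833 CPM in the libraries labelled *siOct4* at day 3 and 3489 to 3560 CPM at day 6. Single fibroblast markers went both ways in *siNcor1*, where 3 rose, 3 fell and 4 did not pass the threshold from day 3 to day 6, while 7 of 10 fell under the *siOct4* label (limma, adjusted p under 0.05). Of the 13866 tested genes, 1917 rose and 2902 fell in *siNcor1*, and 3079 rose and 4233 fell under the *siOct4* label. The non-coding gene *Gm26917* took 15.5 to 16.6% of the reads at day 3 and 20.3 to 29.1% at day 6.

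At day 3 most of these genes were at or near 0 reads, while *Sall4* had 101 and 120 reads in *siNcor1*. In *siNcor1*, 5 of the 8 genes (*Esrrb*, *Dppa5a*, *Tdgf1*, *Utf1* and *Lin28a*) had 3 reads or fewer in both libraries, and so did the same 5 genes in the libraries labelled *siOct4*. Of the 16 gene and library values in each group at day 3, 0 reads were counted for 5 values of *siNcor1* and for 7 values of the libraries labelled *siOct4*. At day 6 no value was 0, and the lowest was 31 reads in *siNcor1* and 7 reads in the libraries labelled *siOct4*. The 8 genes together had 295 reads in *siNcor1* at day 3 and 2762 at day 6, and 59 and 1037 reads in the libraries labelled *siOct4*. The depth thus limits what can be said of single genes at day 3, and a difference of a few reads there is not detectable. Intervals from reads cover counting error only, since reads amplified by PCR are not independent molecules.

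**Figure D1:**
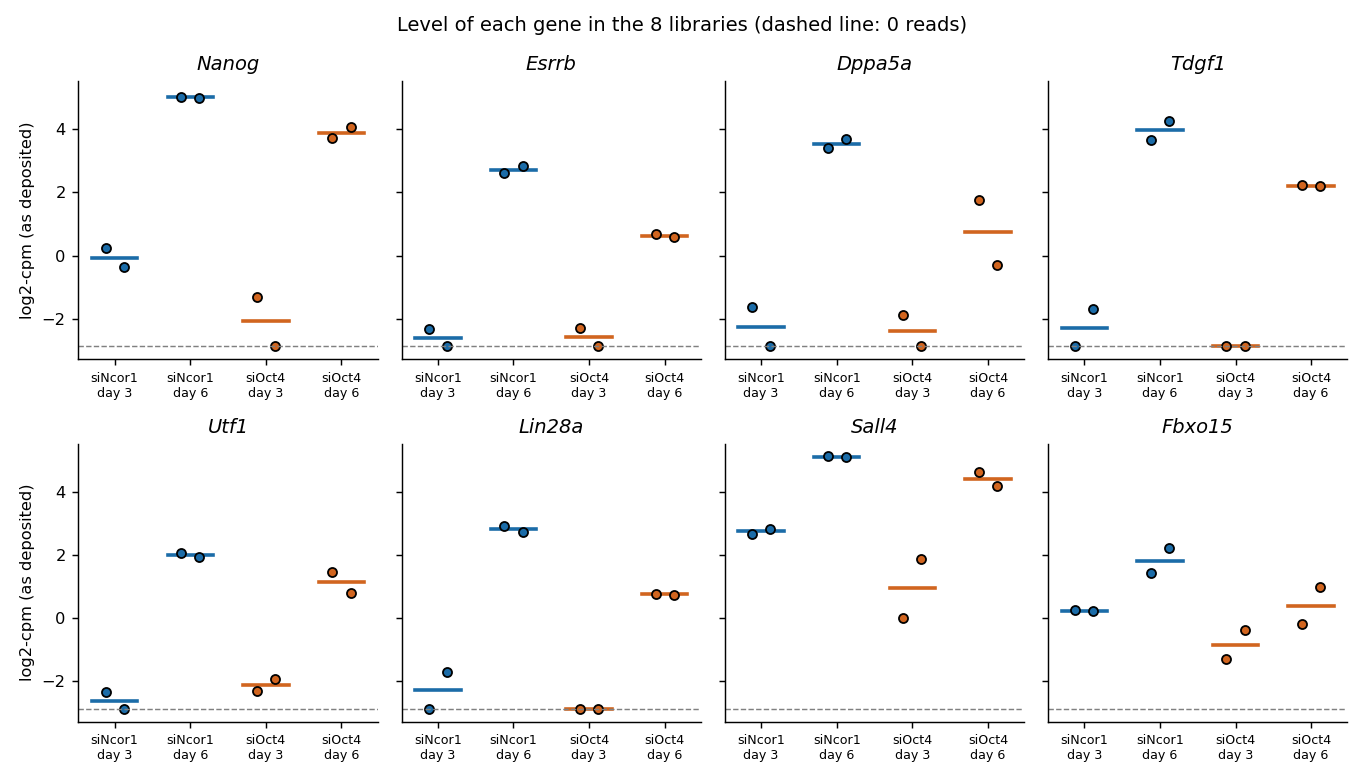
Deposited log2-cpm (vertical axis) of the 8 genes in the 8 libraries, with 1 point for each library, a bar for the mean of the 2 replicates and a dashed line at the value of 0 reads. Every gene lies higher at day 6 than at day 3 in both knockdowns, and at day 6 both libraries labelled *siOct4* (orange) lie below both *siNcor1* libraries (blue). How many of all tested genes are separated in this way was not counted, so the separation is not shown to be particular to these genes.

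*Nanog*, the homeobox factor at the core of the network, lies on chromosome 6 from 122707489 to 122714633 of mm10. It had 17 and 11 reads (1.05 and 0.638 CPM) in *siNcor1* at day 3 and 390 and 380 reads (32.2 and 31.9 CPM) at day 6. The libraries labelled *siOct4* had 4 and 0 reads (0.271 and 0 CPM) at day 3 and 123 and 197 reads (13.0 and 16.7 CPM) at day 6. The days did not overlap in either knockdown, and at each day both libraries labelled *siOct4* were below both *siNcor1* libraries. From pooled reads the level was 38.3-fold higher at day 6 in *siNcor1* (95% interval 26.3 to 58.0) and 85.3-fold higher in the libraries labelled *siOct4* (33.0 to 315). On the deposited log2 scale, where a small constant added to each value lowers the fold changes of genes near 0 reads, the log2 fold change was 5.07 (standard error 0.43, limma adjusted p = 1.9e-05) and 5.98 (standard error 0.43, adjusted p = 1.1e-06).

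*Esrrb*, an orphan nuclear receptor that acts beside NANOG in naive pluripotent cells, lies on chromosome 12 from 86361117 to 86521628. It had 1 and 0 reads (0.0619 and 0 CPM) in *siNcor1* at day 3 and 73 and 83 reads (6.03 and 6.98 CPM) at day 6. In the libraries labelled *siOct4* it had 1 and 0 reads (0.0677 and 0 CPM) at day 3 and 14 and 16 reads (1.48 and 1.36 CPM) at day 6. The knockdowns had the same reads at day 3, and at day 6 the replicates were close to each other and the knockdowns apart. The rise from pooled reads was 217-fold in *siNcor1* (95% interval 38.4 to 8629), which rests on 1 read at day 3, and 32.0-fold in the libraries labelled *siOct4* (5.32 to 1306), which also rests on 1 read. The log2 fold change was 5.33 (standard error 0.46, limma adjusted p = 1.9e-05) and 3.22 (standard error 0.46, adjusted p = 0.000128).

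*Sall4*, a zinc finger factor of the same network, lies on chromosome 2 from 168748332 to 168767943, where *Gm14261* overlaps it on the opposite strand. It had the most reads of the 8 genes at day 3, with 101 and 120 reads (6.25 and 6.96 CPM) in *siNcor1* and 13 and 28 reads (0.881 and 3.54 CPM) in the libraries labelled *siOct4*. At day 6 it had 422 and 410 reads (34.9 and 34.5 CPM) in *siNcor1* and 233 and 213 reads (24.6 and 18.1 CPM) in the libraries labelled *siOct4*. The groups did not overlap in any of these comparisons, while the 2 libraries labelled *siOct4* at day 3 differed from each other beyond counting error (95% intervals 0.469 to 1.51 and 2.36 to 5.12 CPM). From pooled reads it rose 5.24-fold in *siNcor1* (95% interval 4.51 to 6.10) and 11.6-fold in the libraries labelled *siOct4* (8.42 to 16.4). The log2 fold change was 2.37 (standard error 0.43, limma adjusted p = 0.00162) and 3.46 (standard error 0.43, adjusted p = 4.9e-05).

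*Utf1*, a chromatin-bound factor of undifferentiated embryonic cells, lies on chromosome 7 from 139943789 to 139945112. It had 1 and 0 reads (0.0619 and 0 CPM) in *siNcor1* and 1 and 1 read (0.0677 and 0.127 CPM) in the libraries labelled *siOct4* at day 3. At day 6 it had 49 and 44 reads (4.05 and 3.70 CPM) in *siNcor1* and 25 and 19 reads (2.64 and 1.61 CPM) in the libraries labelled *siOct4*. The rise is clear of day 3 in both knockdowns, and of the genes with few reads at day 3 it was the one whose knockdowns lay closest at day 6. The pooled rise was 129-fold in *siNcor1* (95% interval 22.7 to 5166) and 23.5-fold in the libraries labelled *siOct4* (6.12 to 200), against 1 and 2 reads. On the log2 scale *Utf1* rose by 4.61 (standard error 0.46, limma adjusted p = 4.7e-05) and 3.25 (standard error 0.46, adjusted p = 0.000124).

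*Lin28a*, an RNA-binding protein that blocks the processing of let-7 microRNAs, lies on chromosome 4 from 134003330 to 134018841, where *Gm13061* overlaps it on the opposite strand. It had 0 and 3 reads (0 and 0.174 CPM) in *siNcor1* and 0 and 0 reads in the libraries labelled *siOct4* at day 3. At day 6 it had 90 and 78 reads (7.43 and 6.56 CPM) in *siNcor1* and 15 and 18 reads (1.59 and 1.53 CPM) in the libraries labelled *siOct4*. The replicates of day 6 agreed within counting error in each knockdown, and the knockdowns lay apart. The pooled rise was 77.9-fold in *siNcor1* (95% interval 26.2 to 382) and, against the 3 reads that a count of 0 allows over the group, at least 11.7-fold in the libraries labelled *siOct4*. On the log2 scale *Lin28a* rose by 5.11 (standard error 0.48, limma adjusted p = 3.3e-05) and 3.63 (standard error 0.48, adjusted p = 8.3e-05).

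*Dppa5a*, a KH-domain protein found in pluripotent and germ cells, lies on chromosome 9 from 78367052 to 78368177. It had 3 and 0 reads (0.186 and 0 CPM) in *siNcor1* and 2 and 0 reads (0.135 and 0 CPM) in the libraries labelled *siOct4* at day 3. At day 6 it had 126 and 153 reads (10.4 and 12.9 CPM) in *siNcor1* and 31 and 8 reads (3.28 and 0.679 CPM) in the libraries labelled *siOct4*. The 2 libraries labelled *siOct4* at day 6 differed beyond counting error (95% intervals 2.23 to 4.65 and 0.293 to 1.34 CPM), and both were below *siNcor1*. The pooled rise was 129-fold in *siNcor1* (95% interval 43.8 to 631) and 20.8-fold in the libraries labelled *siOct4* (5.39 to 178), against 3 and 2 reads. On the log2 scale *Dppa5a* rose by 5.80 (standard error 0.66, limma adjusted p = 9.9e-05) and 3.12 (standard error 0.66, adjusted p = 0.00198). GENCODE lists the pseudogene copies *Dppa5b* and *Dppa5c*, and likewise *Nanog-ps1*, *Nanog-ps2*, *Tdgf1-ps1* and *Tdgf1-ps2*, which were not used here. How the counting treated reads shared with them is not given in the sources used here, so the levels of these 3 genes are uncertain to that extent.

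*Tdgf1* (Cripto), the co-receptor of the TGF-β ligand NODAL, lies on chromosome 9 from 110939603 to 110946158. It had 0 and 3 reads (0 and 0.174 CPM) in *siNcor1* and 0 and 0 reads in the libraries labelled *siOct4* at day 3. At day 6 it had 153 and 226 reads (12.6 and 19.0 CPM) in *siNcor1* and 43 and 53 reads (4.54 and 4.50 CPM) in the libraries labelled *siOct4*. Here the *siNcor1* libraries were the ones that differed from each other, and the libraries labelled *siOct4* agreed within counting error. The pooled rise was 176-fold in *siNcor1* (95% interval 59.7 to 856), against 3 reads, and at least 34.1-fold in the libraries labelled *siOct4*. On the log2 scale *Tdgf1* rose by 6.25 (standard error 0.44, limma adjusted p = 5.8e-06) and 5.09 (standard error 0.44, adjusted p = 4.2e-06).

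*Fbxo15*, an F-box protein and a known target of OCT4 and SOX2 in embryonic stem cells, lies on chromosome 18 from 84934782 to 84981473, where *Timm21* overlaps it on the opposite strand. It had 17 and 18 reads (1.05 and 1.04 CPM) in *siNcor1* at day 3 and 31 and 54 reads (2.56 and 4.54 CPM) at day 6. The libraries labelled *siOct4* had 4 and 5 reads (0.271 and 0.633 CPM) at day 3 and 7 and 22 reads (0.740 and 1.87 CPM) at day 6. The days did not overlap, but the gap in the libraries labelled *siOct4* is smaller than the spread of the 2 libraries at day 6. The pooled rise was 3.38-fold in *siNcor1* (95% interval 2.26 to 5.16) and 3.44-fold in the libraries labelled *siOct4* (1.58 to 8.25), the smallest of the 8 genes in both. On the log2 scale *Fbxo15* rose by 1.58 (standard error 0.48, limma adjusted p = 0.0245) and 1.24 (standard error 0.48, adjusted p = 0.0476). The first was not called without *siNcor1* day 3 replicate 1 or 2 or without *siNcor1* day 6 replicate 2 (limma adjusted p = 0.10, 0.119 and 0.188). In the libraries labelled *siOct4* the call was lost in 6 of the 8 fits with 1 library left out, which are those without either *siNcor1* day 3 library (adjusted p = 0.0727 and 0.0730), *siNcor1* day 6 replicate 1 or 2 (0.0541 and 0.0579), *siOct4* day 3 replicate 1 (0.266, log2 fold change 0.78) or *siOct4* day 6 replicate 2 (0.316, log2 fold change 0.65). In all, 13 of 19 alternative fits did not call this rise of *Fbxo15*.

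Between day 3 and day 6, then, each of the 8 genes rose in both knockdowns. In *siNcor1*, 8 of 8 were called higher (limma, adjusted p under 0.05), beside 13.8% of the 13866 tested genes, and their median log2 fold change was 5.09 against −0.068 over all tested genes. In the libraries labelled *siOct4*, 8 of 8 were called higher, beside 22.2% of the tested genes, and their median was 3.35 against −0.079, also with *Tdgf1* and *Lin28a* set at their lower bounds. A gene was tested if its mean over the 8 libraries was at least 1 CPM. Of the 8 genes, 7 passed this filter only through their values at day 6, all but *Sall4*, so these counts and medians describe the genes and are no further evidence for a rise. Since most of these fold changes start from a few reads, their size on the log2 scale moved with the constant added. In *siNcor1*, the log2 fold change of *Tdgf1* ran from 3.93 to 7.61, that of *Esrrb* from 2.86 to 6.97 and that of *Nanog* from 4.17 to 5.38 over 19, 19 and 20 alternative fits, and all of these passed the threshold. In bulk libraries, more cells that express a gene and more RNA per cell cannot be told apart.

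**Figure D2:**
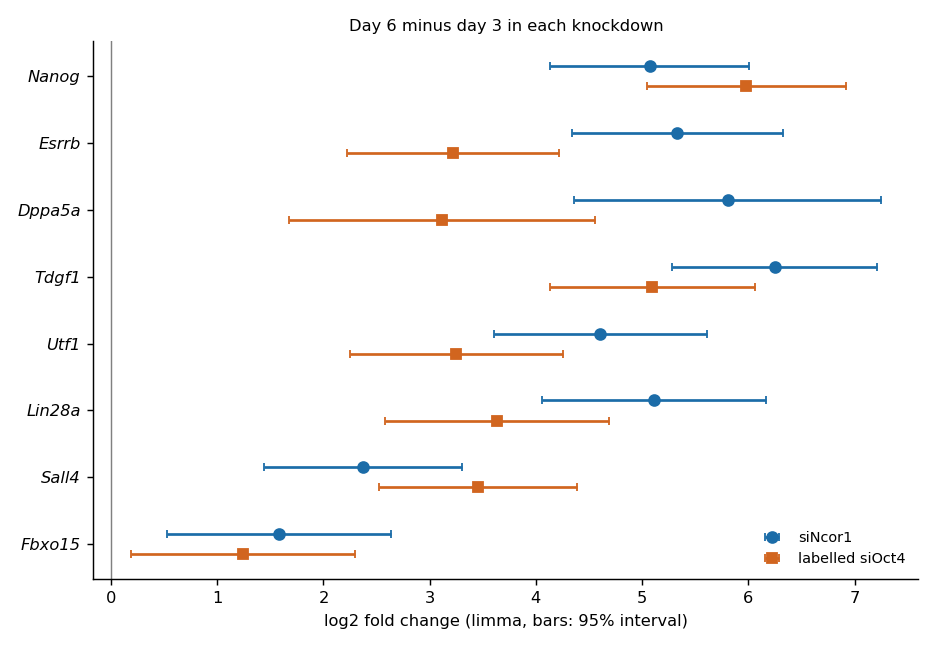
log2 fold change from day 3 to day 6 (horizontal axis) of the 8 genes in *siNcor1* (blue circles) and the libraries labelled *siOct4* (orange squares), with 95% intervals from limma. *Esrrb*, *Dppa5a*, *Tdgf1*, *Utf1*, *Lin28a* and *Fbxo15* have the larger value in *siNcor1*, and *Nanog* and *Sall4* in the libraries labelled *siOct4*.

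Another scaling of the libraries left these directions as they were. With *Gm26917* left out of the library totals, the median log2 fold change of all tested genes in the libraries labelled *siOct4* moved by 0.13, from −0.079 to 0.054, and genes higher at day 6 were 52.6% of those called instead of 42.1%. Over 5 scalings, the smallest rise among the 8 genes there was that of *Fbxo15*, with a log2 fold change between 0.70 (quantile normalization, limma adjusted p = 0.217) and 1.32 (totals without *Gm26917*, adjusted p = 0.0314).

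At day 3, the knockdowns could be compared for *Nanog*, *Sall4* and *Fbxo15*, which had more than 3 reads in a group. The libraries labelled *siOct4* had lower values of all 3, by 4.75-, 3.66- and 2.64-fold from pooled reads, and for each gene the 2 groups did not overlap. The share of all tested genes without overlap was not counted, and groups of 2 libraries can separate without a difference. *Nanog* was the 1 gene of the 8 that was called lower (log2 fold change −2.03, standard error 0.43, limma adjusted p = 0.0491), beside 0.692% of the tested genes. This call rests on 28 reads against 4 reads, and it was lost in 5 of the 8 fits with 1 library left out: without *siNcor1* day 3 replicate 1 or 2 (limma adjusted p = 0.289 and 0.237), *siNcor1* day 6 replicate 1 or 2 (0.0958 and 0.0954) or *siOct4* day 3 replicate 2 (0.230, log2 fold change −1.24). In all it was lost in 13 of 20 alternative fits, with voom on the recovered reads among them (limma adjusted p = 0.112). For *Sall4* the fold change was −1.80 on the log2 scale (standard error 0.43, limma adjusted p = 0.0732). It passed the threshold without *siOct4* day 3 replicate 2 (−2.73, limma adjusted p = 0.000594) and without *siOct4* day 6 replicate 1 or 2 (adjusted p = 0.0346 in each). Without *siOct4* day 3 replicate 1 it was −0.87 (limma adjusted p = 0.194). With voom on the recovered reads *Sall4* was called (−2.08, limma adjusted p = 0.0469). For *Fbxo15* it was −1.08 (standard error 0.48, limma adjusted p = 0.454). For the other 5 genes both groups had 3 reads or fewer in sum, so no fold is given and a difference at day 3 was not detectable at this depth.

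At day 6 the libraries labelled *siOct4* were below *siNcor1* in all 8 genes, and 5 of the 8 were called lower (limma, adjusted p under 0.05), beside 18.6% of the tested genes. The median log2 fold change of the 8 genes was −1.58, against −0.025 over all tested genes. The filter on the mean over the 8 libraries favours genes that are high in *siNcor1* at day 6. *Esrrb*, for example, had a mean of 6.50 CPM there and 1.42 CPM or less in the other groups. The count and the median thus describe the genes and are no further evidence for a lower level. *Dppa5a* was 6.33-fold lower from pooled reads (log2 fold change −2.81, standard error 0.66, limma adjusted p = 0.00869). This size rests on *siOct4* day 6 replicate 2, the library with 8 reads, without which it was −1.78 (limma adjusted p = 0.0432), while without replicate 1 it was −3.84 (adjusted p = 0.00186). *Esrrb* was 4.60-fold lower (−2.09, standard error 0.46, limma adjusted p = 0.00593). *Lin28a* was 4.51-fold lower (−2.07, standard error 0.48, limma adjusted p = 0.00834). *Tdgf1* was 3.49-fold lower (−1.75, standard error 0.44, limma adjusted p = 0.0121). *Fbxo15* was 2.59-fold lower (−1.42, standard error 0.48, limma adjusted p = 0.0435). The 3 genes that did not pass the threshold had the smallest differences. *Nanog* was at 2.13-fold lower (−1.11, 95% interval −2.05 to −0.18, limma adjusted p = 0.0687), *Utf1* at 1.87-fold (−0.86, −1.86 to 0.14, adjusted p = 0.175) and *Sall4* at 1.65-fold (−0.71, −1.64 to 0.22, adjusted p = 0.227).

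**Figure D3:**
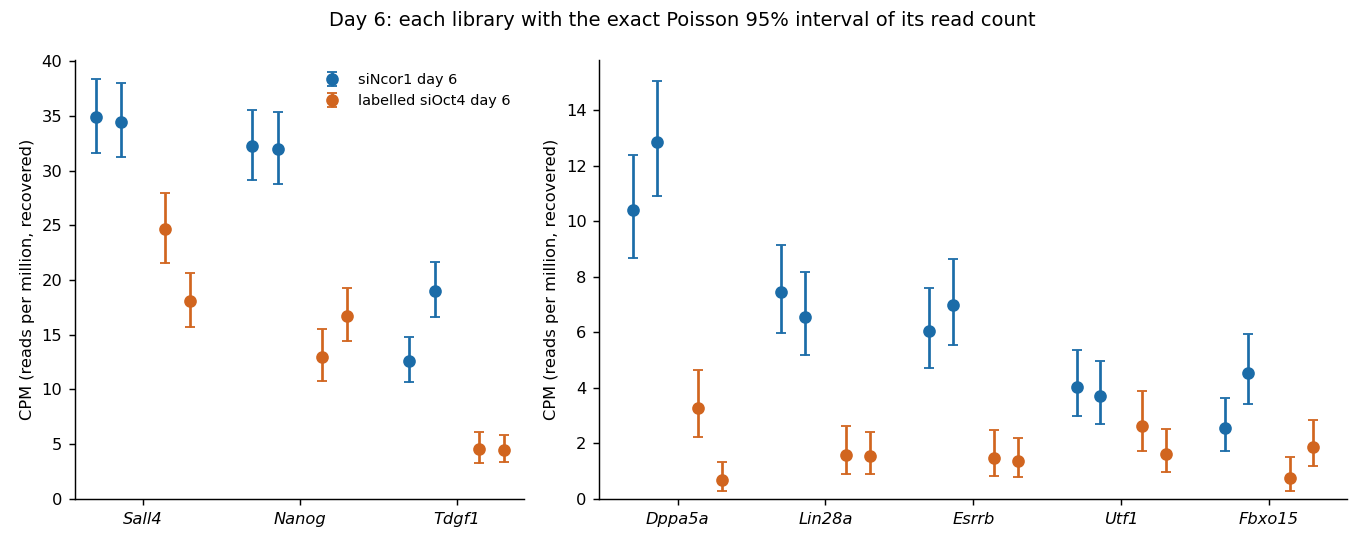
CPM at day 6 (vertical axes, from 0) of the 8 genes in each *siNcor1* library (blue) and each library labelled *siOct4* (orange), with replicate 1 on the left of each pair and bars for the exact Poisson 95% interval of the read count. The intervals of the knockdowns are separate for *Sall4*, *Nanog*, *Tdgf1*, *Dppa5a*, *Lin28a* and *Esrrb*, and overlap for *Utf1* and *Fbxo15*.

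These calls depend on the *siNcor1* libraries of day 6. Without *siNcor1* day 6 replicate 2, 0 of the 8 genes were called lower by limma at day 6, and 1398 of all tested genes were called, against 4251 with all libraries. The log2 fold changes were then −1.99 for *Esrrb* (adjusted p = 0.0797), −2.66 for *Dppa5a* (0.0784), −2.16 for *Lin28a* (0.0691), −1.46 for *Tdgf1* (0.152) and −1.03 for *Fbxo15* (0.301), so that the values stayed near those with all libraries while the lone *siNcor1* library had to be assumed to vary like the other groups. Without *siNcor1* day 6 replicate 1, 3 of the 8 were called, and *Lin28a* (−1.98, limma adjusted p = 0.0676) and *Fbxo15* (−1.82, adjusted p = 0.0552) were not. *Fbxo15* was also not called without *siNcor1* day 3 replicate 1 or 2 (limma adjusted p = 0.0705 and 0.0707) or without *siOct4* day 6 replicate 1 (−0.83, adjusted p = 0.240). In all, 8 of 19 alternative fits did not call *Fbxo15* at day 6. In the other direction, *Nanog* and *Sall4* passed the threshold without *siOct4* day 3 replicate 1 (limma adjusted p = 0.0133 and 0.0189) and without *siOct4* day 3 replicate 2 (0.0117 and 0.0221). *Nanog* was called lower at day 6 in 9 of 20 alternative fits. The scaling of the libraries moved the background: genes higher in the libraries labelled *siOct4* were 39.5% of all called at day 6, and 27.5% with totals without normalization factors.

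Whether the onset itself differed between the knockdowns was tested as the change of the knockdown difference from day 3 to day 6. *Esrrb* was the 1 gene of the 8 called lower by this test (−2.11, standard error 0.64, limma adjusted p = 0.0379), beside 12.9% of the tested genes. A count of 1 of 8 is near that background in the main fit. With all libraries kept, the count ran from 0 to 4 over the alternative fits. The rise of *Esrrb* had the smaller value in the libraries labelled *siOct4*. The call was lost in 6 of the 8 fits with 1 library left out, which are those without *siNcor1* day 3 replicate 2 (limma adjusted p = 0.126), *siNcor1* day 6 replicate 1 or 2 (0.106 and 0.168), *siOct4* day 3 replicate 1 (0.0835) or *siOct4* day 6 replicate 1 or 2 (0.0588 and 0.0681). The value stayed between −2.40 and −1.82 in the 8 fits. With a pseudocount of 0.1 CPM it was −2.14 and also not called (limma adjusted p = 0.0548). For *Dppa5a* the change was −2.69 (95% interval −4.73 to −0.65, limma adjusted p = 0.0613), and it passed the threshold without *siOct4* day 6 replicate 1 (−3.72, adjusted p = 0.00856), the library with 31 reads. Without replicate 2, the library with 8 reads, it was −1.66 (limma adjusted p = 0.147). *Lin28a* (−1.48, −2.97 to 0.013), *Utf1* (−1.36, −2.77 to 0.058), *Tdgf1* (−1.15, −2.52 to 0.21) and *Fbxo15* (−0.34, −1.83 to 1.15) did not pass it. *Nanog* (0.91, 95% interval −0.41 to 2.24) and *Sall4* (1.09, −0.23 to 2.40) had values on the other side of 0, and did not pass it either. Both values turned on which library labelled *siOct4* of day 3 was left out. *Nanog* passed the threshold without replicate 1 (1.70, limma adjusted p = 0.0264) and was near 0 without replicate 2 (0.12, adjusted p = 0.883). *Sall4* passed it without replicate 2 (2.01, limma adjusted p = 0.00551) and was near 0 without replicate 1 (0.16, adjusted p = 0.753).

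The genes of the cassette went the other way at day 6. *Pou5f1* (log2 fold change 1.78, standard error 0.16, limma adjusted p = 0.000109), *Sox2* (1.63, 0.19, adjusted p = 0.000328), *Klf4* (1.67, 0.18, adjusted p = 0.000261) and *Myc* (1.59, 0.16, adjusted p = 0.000196) were each higher where the label is *siOct4*, while all 8 genes outside the cassette had lower values there. At day 3 the cassette genes had log2 fold changes between −0.076 and 0.054. The part of cassette RNA in the levels of the 8 genes was not tested.

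**Figure D4:**
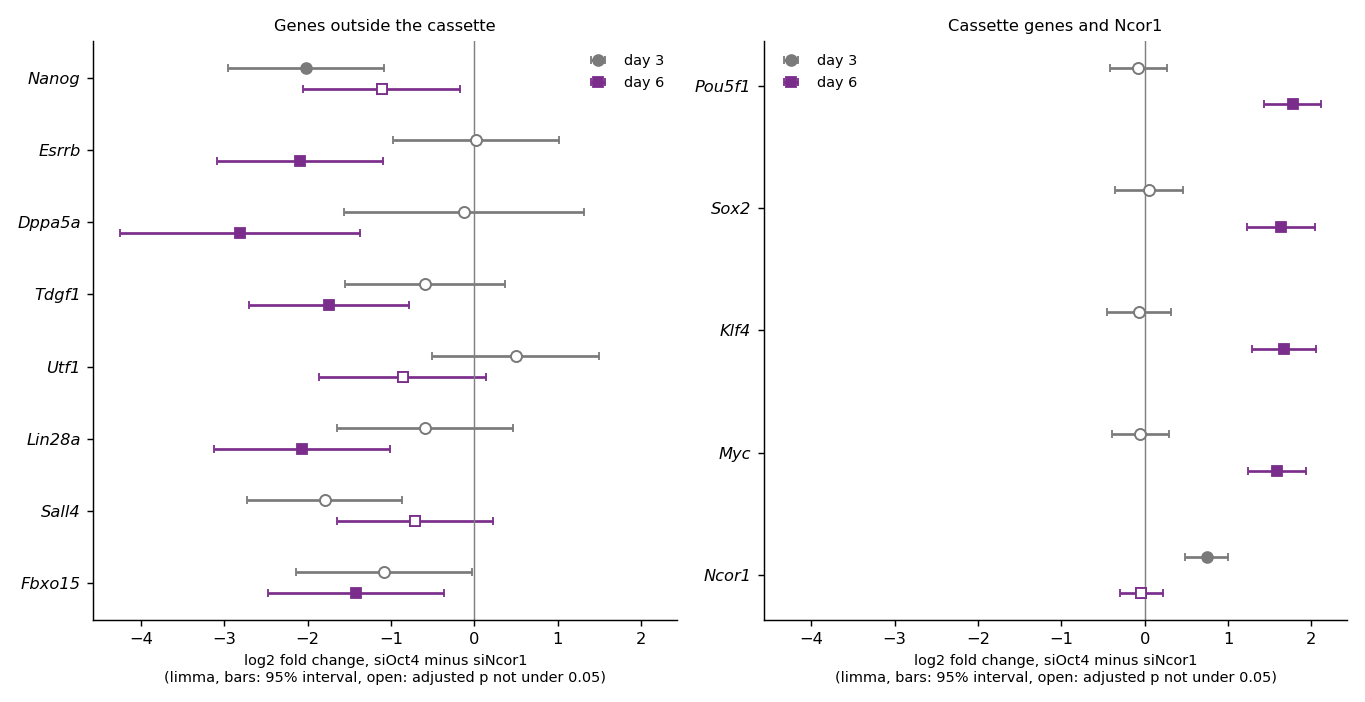
log2 fold change of the libraries labelled *siOct4* against *siNcor1* (horizontal axes) at day 3 (grey circles) and day 6 (purple squares), with 95% intervals from limma and open symbols where the adjusted p was not under 0.05. At day 6 the 8 genes outside the cassette (left) lie between −2.81 and −0.71, and the 4 cassette genes (right, above *Ncor1*) between 1.59 and 1.78.

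Levels of different genes were compared as CPM per kilobase of exons. In *siNcor1* at day 6 the order was *Dppa5a* (18.8 ± 2.80, SD, n = 2), *Nanog* (14.3 ± 0.087), *Sall4* (6.26 ± 0.051), *Tdgf1* (6.03 ± 1.71), *Utf1* (3.16 ± 0.20), *Lin28a* (1.75 ± 0.16), *Esrrb* (1.08 ± 0.11) and *Fbxo15* (1.06 ± 0.42). *Sall4* and *Tdgf1* overlapped, as did *Esrrb* and *Fbxo15*, and the other neighbours did not. In the libraries labelled *siOct4* at day 6 the order was *Nanog* (6.63 ± 1.17), *Sall4* (3.86 ± 0.84), *Dppa5a* (3.19 ± 2.97), *Utf1* (1.73 ± 0.59), *Tdgf1* (1.72 ± 0.012), *Lin28a* (0.390 ± 0.010), *Fbxo15* (0.388 ± 0.24) and *Esrrb* (0.235 ± 0.014). There the neighbours were apart between *Nanog* and *Sall4* and between *Tdgf1* and *Lin28a*, and overlapped elsewhere. At day 3 *Sall4* was the highest in both knockdowns (1.19 ± 0.091 for *siNcor1* and 0.400 ± 0.34 for the libraries labelled *siOct4*), apart from the next gene, *Nanog*, in *siNcor1* and overlapping with the next, *Fbxo15*, in the libraries labelled *siOct4*.

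Of the cell types that could be in such cultures, the summed level of trophoblast markers was higher at day 6 in both knockdowns. All 5 were in the table, and the sum was 6.67 to 7.86 CPM in *siNcor1* at day 3, 31.4 to 31.9 CPM at day 6, 5.35 to 5.44 CPM for the libraries labelled *siOct4* at day 3 and 9.83 to 12.8 CPM at day 6, with *Cdx2* at 0 at day 3 in both knockdowns. The sum hides members that went different ways. Of the 3 trophoblast markers tested, 2 rose and 1 did not pass the threshold in *siNcor1*, while 1 rose, 1 fell and 1 did not pass it under the *siOct4* label (limma, adjusted p under 0.05). The part of such cells in the levels of the 8 genes was not tested. The summed level of 4 extraembryonic endoderm markers was 6.96 to 12.3 CPM over all libraries, with *Sox17* at 0 at day 3. That of 4 macrophage markers was 5.39 to 12.1 CPM, and that of 5 endothelial markers fell from 40.8 to 44.4 CPM at day 3 to 16.4 to 20.9 CPM at day 6, with *Emcn* at 0 at day 6. Only 1 endothelial marker was tested, and it fell in both knockdowns. Of 3 extraembryonic endoderm markers tested, 1 rose, 1 fell and 1 did not pass the threshold in each knockdown. Of 3 macrophage markers tested, 1 rose and 2 did not pass it in *siNcor1*. Under the *siOct4* label 1 rose, 1 fell and 1 did not pass it.

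To see whether the pattern is shared by the rest of the pluripotency programme, 29 other genes of the network were listed, of which 26 were in the table and 20 passed the filter. In *siNcor1*, 12 of the 20 rose from day 3 to day 6 and 8 did not pass the threshold (limma, adjusted p under 0.05), beside the 13.8% of all tested genes that rose, with a median log2 fold change of 1.17. In the libraries labelled *siOct4*, 14 rose, 2 fell (*Tfcp2l1* and *Tbx3*) and 4 did not pass, with a median of 1.37. Of all tested genes, 22.2% rose and 30.5% fell there. These medians are below those of the 8 genes (5.09 and 3.35). The filter shaped both lists, since a gene such as *Dppa3* passed it only through day 6. The shares and medians thus describe the genes and are no further evidence for a rise. Of the genes with the largest changes, *Dppa3*, a maternal factor that protects DNA methylation, had 0 and 0 reads at day 3 in both knockdowns, 78 and 91 reads in *siNcor1* and 7 and 22 reads in the libraries labelled *siOct4* at day 6. Like *Dppa5a* and *Lin28a*, it was lower in the libraries labelled *siOct4* at day 6 (−2.43, limma adjusted p = 0.00489). *Tdh*, the threonine dehydrogenase of mouse embryonic stem cells, rose by 2.59 and 4.32 on the log2 scale and was lower in the libraries labelled *siOct4* at day 3 (−2.25, limma adjusted p = 0.0139), where *Sall4* also had a lower value. *Nr5a2*, a nuclear receptor that binds the *Oct4* gene, rose by 1.14 and 2.93. *Tfcp2l1*, a factor of naive pluripotency, rose by 2.45 in *siNcor1* and fell by 1.03 in the libraries labelled *siOct4*. The 6 genes in the table that were not tested (*Zfp42*, *Dppa4*, *Prdm14*, *Gdf3*, *Lefty2* and *Eras*) had between 0 and 27 reads in any library.

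**Figure D5:**
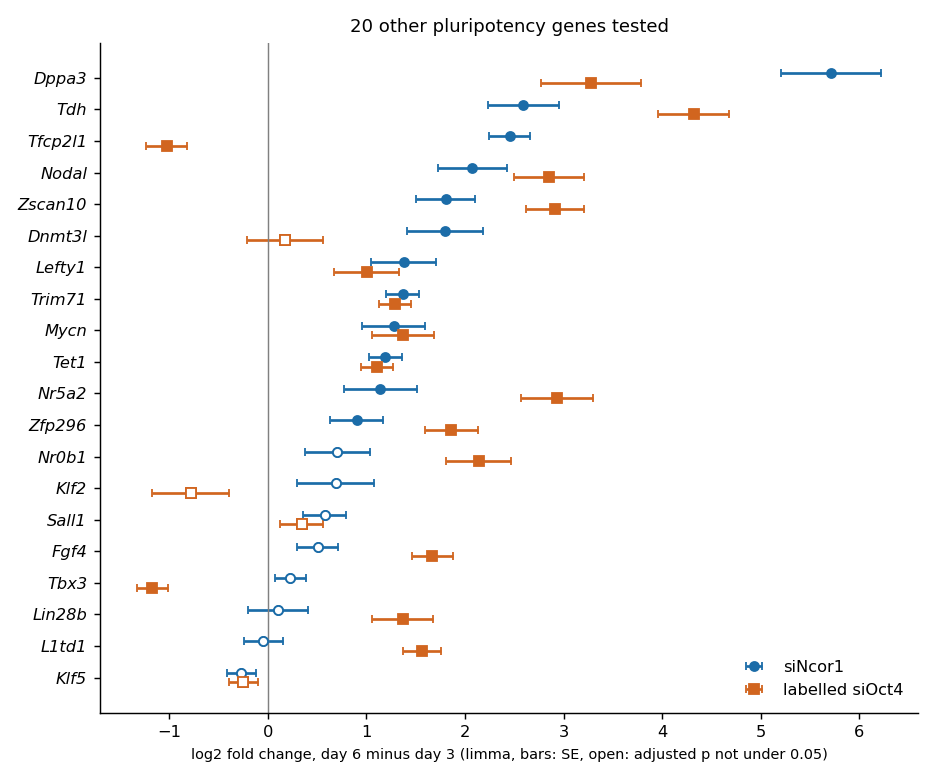
log2 fold change from day 3 to day 6 (horizontal axis) of the 20 other pluripotency genes tested, in *siNcor1* (blue circles) and the libraries labelled *siOct4* (orange squares), with bars for the standard error from limma and open symbols where the adjusted p was not under 0.05. *Dppa3* has the largest value in *siNcor1* and *Tdh* in the libraries labelled *siOct4*, and *Tfcp2l1* lies on opposite sides of 0.

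Between the knockdowns, the libraries labelled *siOct4* had lower levels of 4 of the 20 other genes at day 3 (*Nr5a2*, *L1td1*, *Fgf4* and *Tdh*) and of 5 at day 6 (*Tfcp2l1*, *Tbx3*, *Dppa3*, *Sall1* and *Trim71*; limma, adjusted p under 0.05). The median log2 fold change at day 6 was −0.47 for these 20 genes and −1.58 for the 8 genes. The change of the knockdown difference was called for 8 of the 20, 5 towards higher and 3 towards lower values in the libraries labelled *siOct4*. Of all tested genes, 0.692% were lower at day 3 and 18.6% at day 6, and the change was called higher for 7.77% and lower for 12.9%, so the counts of 5 at day 6 and of 3 lower changes are near the background.

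The genes whose pattern over the 8 libraries was most like each of the 8 were found by Pearson's r of log2-cpm among the 13866 tested genes. The libraries fall into 4 groups of 2, so these r describe the pattern of the groups. They were *Bex1* and *Clec2f* for *Nanog*, *Mt4* and *Krt14* for *Esrrb*, *Slc2a1* and *Mfsd12* for *Dppa5a*, *Adam8* and *Col18a1* for *Tdgf1*, *Trpm4* and *Smox* for *Utf1*, *Tmem132c* and *Scnn1a* for *Lin28a*, *Tdh* and *Sh2d4b* for *Sall4* and *Zfp418* and *Marveld2* for *Fbxo15*. The r of these 16 genes were between 0.976 and 0.997. *Bex1*, the nearest to *Nanog*, had 4.06, 5.73, 3.32 and 5.28 log2-cpm for *siNcor1* at day 3 and day 6 and for the libraries labelled *siOct4* at day 3 and day 6, a smaller range than that of *Nanog* (−0.060, 5.01, −2.09 and 3.90).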

How the data were processed

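RNA-seq was measured in 8 libraries of OSKM-transduced MEFs. By the submitters' processing notes, alignment was to mm10 with STAR 2.5.2b, and the authors deposited log2-cpm values made with edgeR 3.20.9. The counting tool and its strand setting are not given in the sources used here. A small constant was removed from the deposited log2 values on the linear scale, which gave whole reads, within 0.1 read, for 100% of values. Reads on genes were between 7735742 and 16445192 per library, and the 2 replicates of a group were separate beyond counting noise (8.44 to 18.7 chi-square units per degree of freedom). Of 18990 genes, 18969 matched GENCODE M21.

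The 13866 genes whose mean reached 1 CPM were tested on the log2 scale of the deposited table with limma 3.58.1 (R 4.3.3) (variance trend, 4 groups fitted together, Benjamini-Hochberg adjustment, threshold 0.05). The exact Poisson and binomial intervals of reads and their ratios were at 95%, and a group at 0 reads was set to 3 reads. The tests were also run on simulated reads with the same spread setting for every gene. That run does not show how the tests behave on genes near 0 reads in 1 group. P-values rest on the spread between replicates, pooled over the 4 groups and drawn towards that of genes of like level. An exact permutation test of 2 against 2 libraries cannot go below 0.333.

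The 8 members and the gene lists (other pluripotency genes and markers of fibroblast, macrophage, endothelial, extraembryonic endoderm and trophoblast cells) were chosen with earlier results of these data known. The genes named are the members, *Ncor1* and the cassette genes, the 3 called other pluripotency genes with the largest change in each day comparison and, for each member, the 2 tested genes of highest correlation. Genes behind counts of 5 or fewer, untested genes and the other pluripotency genes with a called interaction were named after their values were seen. Alternatives were no variance trend, 4 other scalings, no filter, a mean of 10 CPM, pseudocounts of 0.1 and 1 CPM, the replicate number as a block, a fit of the compared libraries alone, voom on the recovered reads and each library left out. Totals without *Gm26917* were added after the data were seen. 1 other pluripotency gene is not reported here. Promoter sequences are from RefSeq (GRCm38.p6). Figures were drawn with matplotlib 3.10.9.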

Additional observations from a re-analysis of the deposited data

Results flagged for a closer look

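The interaction of knockdown and day was called by limma (adjusted p under 0.05) for 1 of the 8 genes, for *Ncor1* and the 4 cassette genes, and for 8 of the 20 other pluripotency genes, beside 12.9% of all tested genes called lower and 7.77% called higher. The count of 1 among the 8 genes, called lower, is near that background in the main fit, and it ran from 0 to 4 over the alternative fits with all libraries. *Esrrb* had −2.11 on the log2 scale (standard error 0.64, limma adjusted p = 0.0379), a smaller rise under the *siOct4* label, and this call was lost in 6 of 8 fits with 1 library left out. Of the other pluripotency genes, *Tfcp2l1* had −3.48, *Dppa3* −2.43 and *Tbx3* −1.40 (limma adjusted p = 0.000240, 0.0340 and 0.00191). *Nr5a2* had 1.79, *Tdh* 1.73 and *L1td1* 1.61 (limma adjusted p = 0.0323, 0.0331 and 0.00263), and *Nr0b1* had 1.44 and *Fgf4* 1.16 (adjusted p = 0.0483 and 0.0181). The cassette genes had 1.85 for *Pou5f1*, 1.58 for *Sox2*, 1.74 for *Klf4* and 1.64 for *Myc* (limma adjusted p = 0.000640, 0.00229, 0.00125 and 0.000948). *Ncor1* had −0.79 (limma adjusted p = 0.00824). Groups of 2 libraries were too small to look for single outlying samples.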

How the results depend on the processing

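The rise of 7 of the 8 genes, all but *Fbxo15*, kept its direction and its call in both knockdowns in every alternative that tested the gene. With a mean of at least 10 CPM, only *Nanog* and *Sall4* were tested, so 2 genes were called in each knockdown, 0 at day 3, 0 at day 6 and 0 for the change of the difference, and 81 of all genes were called at day 3. The call of *Nanog* at day 3 was lost without the variance trend (0 of the 8 genes, 43 of all genes), with quantile normalization (0), without a filter (0), with pseudocounts of 0.1 and 1 CPM (0 and 0) and with the compared libraries alone (0). The change of the difference was called lower for 4 genes with quantile normalization and with a pseudocount of 1 CPM, for 2 with totals without normalization factors or without *Gm26917*, and for 0 with a pseudocount of 0.1 CPM. Quantile normalization called 3157 of all tested genes in either direction and the pseudocount of 1 CPM 2971, against 2867 in the main fit. The cause of these moves was not tested.

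With 1 library left out, all genes called ranged from 2360 to 5954 for the days in *siNcor1*, 3 to 375 at day 3, 1398 to 4669 at day 6 and 1009 to 3667 for the change of the difference, and the 8 genes called lower from 0 to 2 at day 3, 0 to 7 at day 6 and 0 to 1 for the change. Signs turned in values that did not pass the threshold. At day 3, *Dppa5a* was −0.12 and became 0.47 with quantile normalization and 0.39 with voom (range −0.74 to 0.50 with 1 library left out), and *Esrrb*, at 0.021, ranged from −0.27 to 0.31. The change of the difference was −0.37 for *Nanog* with a pseudocount of 1 CPM, against 0.91, and for *Fbxo15*, at −0.34, it ranged from −0.94 to 0.26 with 1 library left out.

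When the replicate number was fitted as a block, 2 genes were called lower at day 3 (*Nanog* and *Sall4*), 6 at day 6 and 2 for the change of the difference (*Esrrb* and *Dppa5a*). Of all 13866 tested genes, this fit called 222 at day 3, 4698 at day 6 and 3395 for the change, in either direction. Higher values were 38.3%, 41.1% and 40.5% of those called. Deviations of same-numbered libraries correlated between −0.040 and 0.281 and not every pair was above 0.1. These values cannot tell whether same-numbered libraries shared a batch, and the labels give only a number. Depth limits day 3, where 3 reads stand for 0.174 to 0.380 CPM.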
